A study of Mus musculus with 4 samples.

Results

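The chemokine genes Ccl2, Ccl7, Ccl11, Cxcl1, Cxcl10, Cxcl12 and Cxcl14 were followed through sorted cells of the embryonic mouse lung. They are 7 of the 32285 genes in the deposited count matrices, picked by symbol after earlier results of the same matrices were known. Their levels in the contrasts that follow are therefore given as a description. The mutant libraries held embryos in which floxed Myrf was to be deleted by Wt1creERT2, a tamoxifen-dependent Cre recombinase made from the Wt1 gene, and the control libraries held Cre-carrying embryos. Both groups carried the R26TdTomato reporter, which marks recombined cells and their descendants, and both received tamoxifen at E12.5 (embryonic day) and were collected at E16.5. The labels name a cross with floxed Myrf in both parents and do not give the Myrf alleles of the control embryos. Lungs of 3 to 5 embryos per genotype were pooled, embryos were first told apart by lung and cell shape, and living tdTomato-positive cells were sorted. There were 2 libraries per genotype, and nothing says that they came from separate pools, so the tests measure only the spread between these libraries. Cells of the Wt1 lineage include mesothelium and the mesenchyme it gives rise to, and the reporter also marks any other cell in which Cre acted.

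Chemokines are small secreted proteins that draw cells along a gradient by binding receptors in the cell membrane. CC chemokines act mainly on monocytes, eosinophils and lymphocytes, and CXC chemokines mainly on neutrophils, T cells and progenitors. In mesothelium and in stromal cells, several of them are inflammatory genes whose transcription is switched on by NF-kB, by interferon-activated factors or by both, while Cxcl12 and Cxcl14 are commonly made without such a trigger. Ccl2 and Ccl7 attract monocytes through the receptor Ccr2. Ccl11 (eotaxin) attracts eosinophils through Ccr3, Cxcl1 attracts neutrophils through Cxcr2, and Cxcl10 attracts activated T cells through Cxcr3. Cxcl12 holds progenitor cells and guides vessels through Cxcr4.

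Ccl2 (ENSMUSG00000035385), Ccl7 (ENSMUSG00000035373) and Ccl11 (ENSMUSG00000020676) lie next to each other on the plus strand of mouse chromosome 11 (build mm10). Ccl2 runs from 82035571 to 82037453, Ccl7 from 82045712 to 82047525 and Ccl11 from 82057823 to 82062955. Cxcl1 (ENSMUSG00000029380, 90891241 to 90893115, plus strand) and Cxcl10 (ENSMUSG00000034855, 92346638 to 92348889, minus strand) both lie on chromosome 5. Cxcl12 (ENSMUSG00000061353) lies on chromosome 6 from 117168535 to 117181367, and Cxcl14 (ENSMUSG00000021508) on chromosome 13 from 56288643 to 56296551. All 7 are protein-coding.

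The 250 bases before the start of Cxcl10, Cxcl1 and Cxcl14 are shown because these genes differed in the cells that held them. As described below, Cxcl10 and Cxcl1 were found together in mutant cells with Tnnt2 and Des more often than their separate shares give. Still, only 7 of 20 and 36 of 105 such cells with Cxcl10 also held Cxcl1 in mutant libraries 1 and 2. Pairs of either gene with Cxcl14 lay closer to the number that the shares give. The sequences come from RefSeq (build GRCm38.p6), read 5′ to 3′ on the gene's strand. Of the 7 genes, 4 had an entry, and Ccl2, Ccl7 and Ccl11 are named only. Capitals mark matches, on either strand, to the kappaB consensus (the site bound by NF-kB), the core of the interferon-stimulated response element (GAAA, any 2 bases, GAAA) or the AP-1 site (TGANTCA).
Cxcl10, chr5:92348890-92349139, minus strand: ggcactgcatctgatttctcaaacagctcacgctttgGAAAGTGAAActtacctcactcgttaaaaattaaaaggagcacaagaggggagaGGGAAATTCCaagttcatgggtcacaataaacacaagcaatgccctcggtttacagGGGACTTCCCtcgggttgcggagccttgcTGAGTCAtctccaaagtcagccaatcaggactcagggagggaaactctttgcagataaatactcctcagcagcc
Cxcl1, chr5:90890995-90891244, plus strand: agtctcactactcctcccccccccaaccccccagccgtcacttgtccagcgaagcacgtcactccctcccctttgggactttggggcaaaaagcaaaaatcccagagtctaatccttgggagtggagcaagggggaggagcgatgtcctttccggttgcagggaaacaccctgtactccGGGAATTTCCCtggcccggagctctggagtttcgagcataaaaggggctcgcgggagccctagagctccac
Cxcl14, chr13:56296552-56296801, minus strand: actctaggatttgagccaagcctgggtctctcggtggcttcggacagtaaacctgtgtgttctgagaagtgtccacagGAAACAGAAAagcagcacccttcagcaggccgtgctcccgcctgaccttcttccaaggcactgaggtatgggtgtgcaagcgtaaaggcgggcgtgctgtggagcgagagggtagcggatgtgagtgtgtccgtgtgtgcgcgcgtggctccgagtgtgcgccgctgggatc
The Cxcl10 window held 2 kappaB matches, starting 159 and 103 bases before the gene, 1 response element match at 213 bases and 1 AP-1 match at 74 bases. The Cxcl1 window held 2 overlapping kappaB matches, at 71 and 70 bases. The Cxcl14 window held 1 response element match at 172 bases, and the Cxcl12 window held none of the motifs. Among 32851 promoters of the same length, 3.90% held a kappaB match, 2.98% a response element match and 6.75% an AP-1 match. These matches describe the letters and do not show binding.

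The libraries differed in size and make-up. After filtering, mutant libraries 1 and 2 held 411 and 4275 cells, and control libraries 1 and 2 held 281 and 3503. Unique molecular identifiers (UMIs, counted molecules) summed to 20884697 and 80666128 in the mutant libraries and to 8175944 and 57965000 in the control libraries. Myrf stood at 19.1 and 7.20 CPM (a gene's UMIs scaled to a fixed total per sum of cells) in the mutant libraries and at 76.0 and 48.6 CPM in the control libraries, read from 3' ends that do not show whether the floxed part was removed. Cells marked by Xist rather than by Y-linked genes made up 64.8 and 82.9% in the mutant libraries, against 24.4 and 56.3% in the control libraries, and the part of embryo sex in the results was not tested. Mesothelial-like cells (Upk3b, Upk1b, Msln and other markers) numbered 3 and 3 in the mutant libraries and 111 and 731 in the control libraries. Smooth muscle-like cluster 2, led by Des and sharing Tnnt2, numbered 246 and 1546 cells in the mutant libraries and 4 and 35 in the control libraries. A further 2039 of the 3503 barcodes of control library 2 had a mixed profile that resembled their whole library and were left unnamed. Their cluster met 7 of 10 mesothelial markers, with Cxcl14 and Rspo1 among its 10 leading genes. They held 169 of 338 Ccl2, 127 of 210 Ccl7, 226 of 615 Ccl11 and 198 of 328 Cxcl1 UMIs of that library. For Cxcl10, Cxcl12 and Cxcl14 they held 94 of 238, 252 of 745 and 2701 of 6226. The values by named class in control library 2 leave these molecules out. Across libraries, 9 barcode sequences occurred in more than 1 library.

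Over all sorted cells, Ccl2, Ccl7, Cxcl10 and Cxcl12 stood higher in both mutant libraries than in both control libraries, and Cxcl14 stood lower. The share of all genes that separate in this way was not counted. Ccl2 was at 55.7 and 91.2 CPM in mutant libraries 1 and 2, against 1.83 and 5.83 CPM in control libraries 1 and 2. Its log2 change was 4.19 ± 0.65 (SE from the edgeR fit, n = 2 libraries per group, here and below). That SE is the log2 change over the square root of the fit's F statistic, whose variance is moderated across genes. It is not the spread of a gene's own 2 libraries. Ccl7 was at 35.3 and 20.8 CPM in the mutant libraries, against 5.26 and 3.62 CPM in the control libraries (log2 change 2.73 ± 0.29). Both groups stood apart for these neighbouring genes, and the lowest mutant value of Ccl2 was far above the highest control value. Cxcl10 was at 15.7 and 14.0 CPM in the mutant libraries, against 0 and 4.11 CPM in the control libraries (log2 change 2.58 ± 1.02). With 3 UMIs taken as the floor of control library 1, Cxcl10 was at least 42.8-fold (mutant library 1) and 38.1-fold (mutant library 2) above that library alone. The gap to control library 2 was far smaller, with a log2 ratio of CPM + 1 of 1.55 for mutant library 2. Cxcl12 was at 44.1 and 30.1 CPM in the mutant libraries, against 22.1 and 12.9 CPM in the control libraries (log2 change 1.17 ± 0.28). A single endothelial-like cell held 495 of the 921 Cxcl12 UMIs of mutant library 1. The separation of Cxcl12 between the groups rests on that cell, without which mutant library 1 would lie below control library 1.

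Cxcl14 went the other way. It was at 15.2 and 8.32 CPM in the mutant libraries, against 82.1 and 107 CPM in the control libraries, a log2 change of -3.00 ± 0.34. Ccl11 was at 3.35 and 10.4 CPM in the mutant libraries, against 22.3 and 10.6 CPM in the control libraries (log2 change -1.02 ± 0.63), and the libraries numbered 2 were nearly level. Cxcl1 was at 6.70 and 5.31 CPM in the mutant libraries, against 1.22 and 5.66 CPM in the control libraries (log2 change 0.70 ± 0.67), with mutant library 2 inside the control range. Ccl7 passed as higher and Cxcl14 as lower in edgeR's quasi-likelihood test with Benjamini-Hochberg adjustment at 0.05, which makes 2 of 7. Ccl2, at an adjusted p of 0.0911, and Cxcl12, at 0.236, did not pass in that fit, and both passed in DESeq2 (adjusted p = 7.0e-14 and 0.0368). Of the 16242 genes tested, 0.302% passed, 0.0123% as higher and 0.289% as lower. The genes were chosen with this contrast known, so nothing is read from their count. Sums over sorted cells cannot tell fewer cells of a type from less RNA per cell. The median log2 change was 1.17 over the 7 members and 0.03 over all genes tested.

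**Figure D1:**
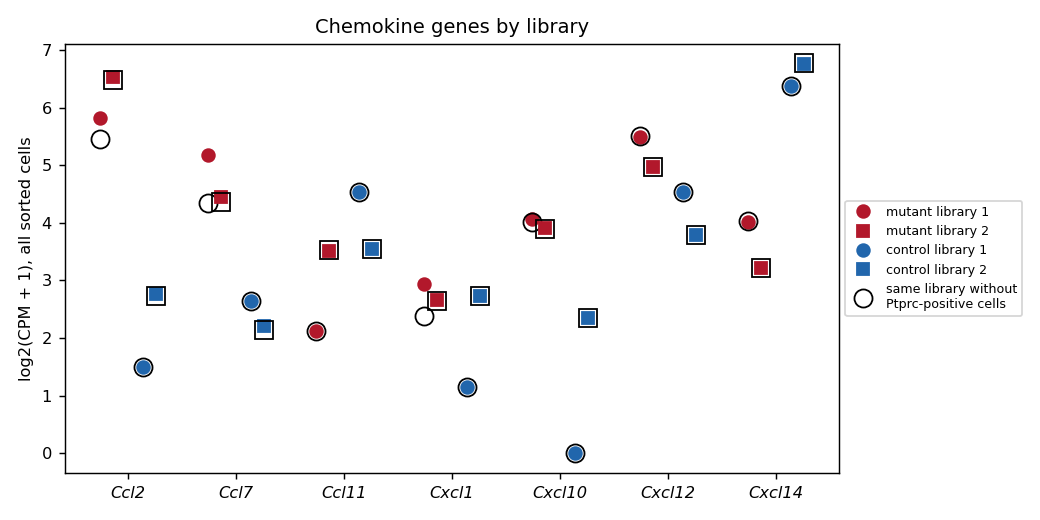
Levels of the 7 chemokine genes over all sorted cells, as log2(CPM + 1), with each mutant library left of the control libraries and open black symbols for the same library without Ptprc-positive cells. Ccl2, Ccl7, Cxcl10 and Cxcl12 lie higher in both mutant libraries and Cxcl14 lies lower, and removing 3 Ptprc-positive cells lowers Ccl7 of mutant library 1 to 19.4 CPM. For Cxcl12 the separation rests on 1 cell of mutant library 1, which held 495 of its 921 UMIs.

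A handful of Ptprc-positive cells held many of the Ccl7 molecules of mutant library 1. Ptprc encodes CD45, the surface protein of white blood cells, and cells with at least 1 Ptprc UMI numbered 3 and 11 in the mutant libraries and 0 and 10 in the control libraries. The 3 cells of mutant library 1 held 335 of 737 Ccl7 UMIs, 272 of 1163 Ccl2 UMIs and 53 of 140 Cxcl1 UMIs. The 11 cells of mutant library 2 held 100 of 1677 Ccl7 UMIs and 312 of 7358 Ccl2 UMIs. The cells were few, but Ccl7 reached 2195 CPM within them in mutant library 1 and 369 CPM in mutant library 2, against 47.1 CPM in control library 2. Without Ptprc-positive cells, Ccl7 stood at 19.4 and 19.6 CPM in the mutant libraries, against 5.26 and 3.41 CPM in the control libraries, and its log2 change of 2.30 no longer passed the threshold in edgeR. Cxcl10 was little touched, with 12 of 328 and 17 of 1128 UMIs in the Ptprc-positive cells of the mutant libraries.

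Most of the remaining Ccl2, Ccl7 and Cxcl10 molecules came from 1 group of cells, smooth muscle-like cluster 2. Of the Ccl2 UMIs it held 839 of 1163 and 6399 of 7358 in mutant libraries 1 and 2. For Ccl7 it held 373 of 737 and 1323 of 1677 UMIs, and for Cxcl10 286 of 328 and 1042 of 1128. The same cluster had no UMI of Ccl2, Ccl7 or Cxcl10 in its 35 cells of control library 2, a count that allows a share of up to 8.57% of cells with a UMI. Levels within the cluster were 64.5 and 220 CPM for Ccl2, 28.7 and 45.4 CPM for Ccl7 and 22.0 and 35.8 CPM for Cxcl10 in mutant libraries 1 and 2. The level of Ccl2 was higher in the 14 immune-like cells of mutant library 2, at 1173 CPM. Other smooth muscle-like cells of the mutants differed. Cluster 6, with Myh11 and Ednrb, held 0 and 6 Ccl2 UMIs in 27 and 275 cells, and no Cxcl10 UMI.

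Classes outside cluster 2 held other members. Ccl11 was high in pericyte-like cells, at 223 CPM in the 26 cells of mutant library 2, against 68.5 and 158 CPM in the 11 and 10 cells of control libraries 1 and 2. In fibroblast-like cluster 3, which Tcf21 marks, it was at 37.8 and 26.1 CPM in the mutant libraries, against 96.4 and 73.2 CPM in the control libraries. Cluster 2 was nearly without it, at 0.308 and 0.309 CPM in the mutant libraries. Its neighbour Ccl2 was also high in pericyte-like cells, at 148 CPM in mutant library 2, against 47.9 and 163 CPM in the control libraries.

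Cxcl12 was highest in endothelial-like cells, at 1218 CPM in the 47 cells of mutant library 2, against 372 and 111 CPM in the 14 and 13 cells of control libraries 1 and 2. Few cells carried it. A single endothelial-like cell of mutant library 1 held 495 of the 921 Cxcl12 UMIs counted there over all sorted cells, and 7 cells of mutant library 2 held 893 of 2431. In fibroblast-like cluster 3, which held many more cells, Cxcl12 was at 36.6 and 28.4 CPM in the mutant libraries, against 23.1 and 29.3 CPM in the control libraries. There a UMI was found in 31.4 and 29.4% of mutant cells, against 24.6 and 30.4% of control cells.

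Cxcl14 marked the larger of the 2 mesothelial-like clusters of the controls. In mesothelial-like cluster 5 it was at 153 and 227 CPM in control libraries 1 and 2, with a UMI in 85.4 and 81.7% of cells. The mutants held 2 and 3 cells of that cluster, too few for a level. In control library 2, the 68 cells of mesothelial-like cluster 11 held 39 Cxcl14 UMIs, against 3277 in the 663 cells of cluster 5. Among mutant cells, Cxcl14 was highest in smooth muscle-like cluster 7, at 84.1 and 52.4 CPM in 28 and 241 cells. That cluster met 8 of 8 smooth muscle markers, but its 10 leading genes began with Actc1, Myl4 and Ramp1 and held Tnnt2, and Actc1, Myl4 and Tnnt2 are also known from heart muscle. In cluster 2 it was at 13.3 and 6.42 CPM in the mutant libraries. Cxcl10 was also found in control mesothelium of 1 library, at 7.77 CPM in cluster 5 of control library 2 and with no UMI in the 103 such cells of control library 1. Cxcl1 was at 5.92 and 12.6 CPM in cluster 2 of the mutant libraries, against 1.83 and 2.78 CPM in cluster 5 of the control libraries. In control library 2, mesothelial-like cluster 11 held 27 Cxcl10 and 15 Cxcl1 UMIs in 68 cells. Cluster 5 there held 112 and 40 in 663 cells, so both genes had more UMIs per cell in cluster 11. The highest Cxcl1 level outside immune-like cells, among classes of 10 or more cells, was 30.1 CPM. It was in a control, in the 70 cells of fibroblast-like cluster 9 of control library 2.

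Mesenchymal-like cells as a whole (fibroblast-like, smooth muscle-like and pericyte-like) numbered 380 and 4157 in the mutant libraries and 118 and 682 in the control libraries. Ccl2 was at 47.3 and 89.3 CPM in these cells of the mutants, against 2.12 and 5.82 CPM in the controls. Ccl7 was at 21.9 and 20.04 CPM in the mutants, against 10.6 and 2.79 CPM in the controls. Both genes stood higher in the mutants here too. Cxcl12 did not, at 23.0 and 19.8 CPM in the mutants, against 26.4 and 24.7 CPM in the controls. Cxcl14 overlapped, at 17.0 and 8.61 CPM in the mutants, against 11.5 and 11.3 CPM in the controls. The higher Cxcl12 and the lower Cxcl14 of the mutants over all sorted cells were thus not seen within their mesenchymal-like cells, a class that differs in make-up between the genotypes.

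**Figure D2:**
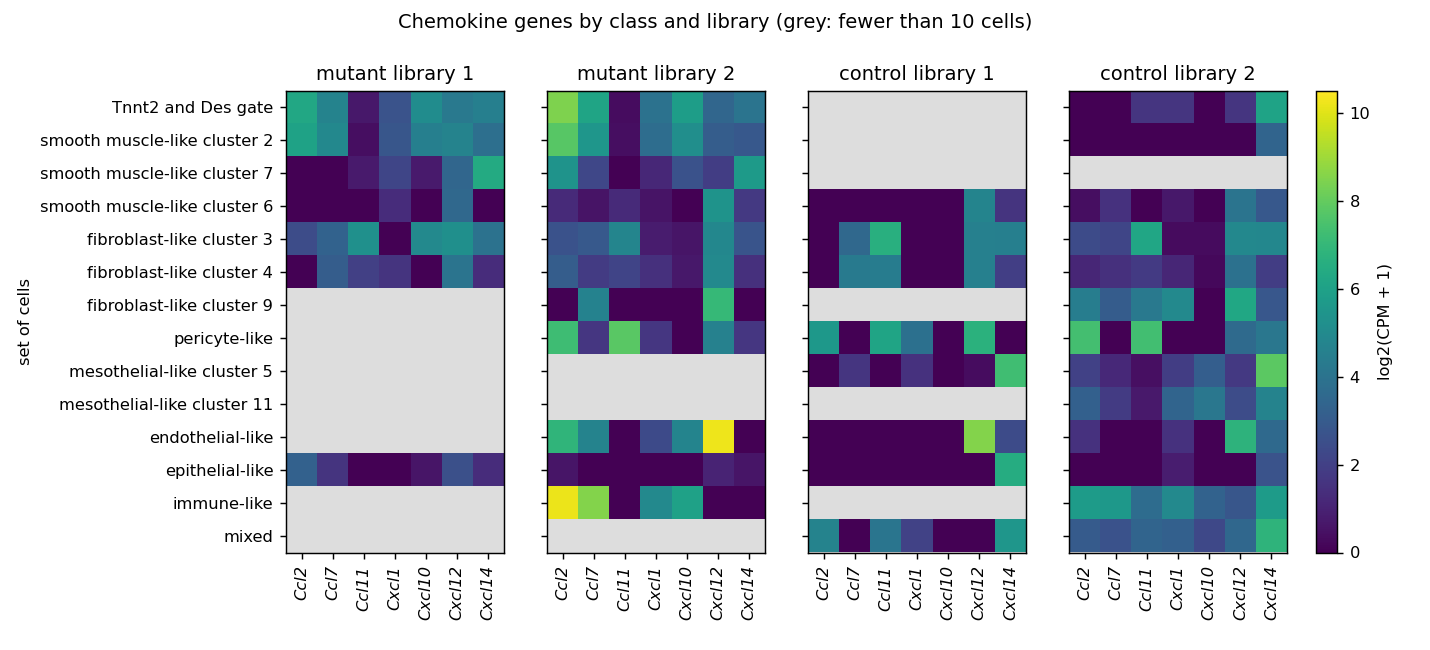
Levels of the 7 genes as log2(CPM + 1) by class of cells (rows) in mutant libraries 1 and 2 and control libraries 1 and 2, with sets of fewer than 10 cells in grey. Ccl2, Ccl7 and Cxcl10 are bright in cluster 2 and in the gate of mutant libraries, Ccl11 in fibroblast-like cluster 3 and pericyte-like cells, Cxcl12 in endothelial-like cells, and Cxcl14 in mesothelial-like cluster 5 of controls.

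Fibroblast-like cells (clusters 3, 4 and 9, without Ptprc-positive cells) were the mesenchymal class that both genotypes held in number, with 77 and 2068 cells in the mutant libraries and 84 and 483 in the control libraries. No member passed the test there. Cxcl14 was at 5.44 and 4.45 CPM in the mutant libraries, against 14.5 and 12.3 CPM in the control libraries (log2 change -1.34 ± 0.32, edgeR adjusted p = 0.999). Ccl11 was at 14.3 and 19.0 CPM in the mutant libraries, against 65.3 and 29.9 CPM in the control libraries (log2 change -1.32 ± 0.42, edgeR adjusted p = 0.999). Ccl11 passed there with no low-count filter (edgeR adjusted p = 0.00634) and without control replicate 2 (0.0124), within a range of 0.00634 to 1.0 over its alternatives. For both genes the mutant libraries lay below the control libraries without overlap. How many of all the genes tested separate in this way was not counted, so nothing is read from it. Cxcl12 did not separate, at 22.8 and 29.3 CPM in the mutant libraries, against 23.1 and 28.7 CPM in the control libraries (log2 change 0.14 ± 0.30). Ccl7, at 7.82 and 5.50 CPM in the mutant libraries, lay between the control values of 13.7 and 3.23 CPM (log2 change -0.14 ± 0.64). Ccl2 was at 1.36 and 5.97 CPM in the mutant libraries, against 0 and 5.27 CPM in the control libraries (log2 change 0.53 ± 1.01). Cxcl1 and Cxcl10 did not pass the filter on low counts, so 5 of 7 members were tested. Of 12399 genes, 0% passed in edgeR (0 genes), 276 had an unadjusted p under 0.05 and DESeq2 called 6. Cluster 3 held most of these cells in mutant library 2 and in control library 1, and cluster 4 held most in mutant library 1. Control library 2 was divided, with 214 cells in cluster 3, 199 in cluster 4 and 70 in cluster 9. Mesothelial markers moved with these sums: 6 of the 10 were tested, 5 of them lower in mutants, with a median log2 change of -2.52, and their part in the result was not tested.

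The chemokine signal in mutants was then followed into cells that carried both Tnnt2, which encodes the cardiac form of troponin T, and Des, which encodes the muscle intermediate filament desmin. A gate of at least 2 UMIs per 10000 for each gene, with Ptprc-positive cells kept apart, held 123 and 537 cells of mutant libraries 1 and 2, and 1 and 26 cells of control libraries 1 and 2. Clusters 2 and 7 held 122 and 524 of the gated mutant cells. Markers of blood cells were nearly absent. The 10 immune markers summed to 2.93 and 5.20 CPM in the gated cells of the mutant libraries. In their immune-like cells the sums were 7502 and 6188 CPM. Cd52 and S100a8 were at 0 in the gated cells, but S100a8 was also at 0 in the immune-like cells of both mutant libraries. Ptprc, also among the 10, was at 0 in the gated cells by the selection, and stood at 229 and 134 CPM in the immune-like cells. The 8 smooth muscle markers summed to 10423 and 6830 CPM in the gated cells, against 4443 and 2320 CPM in the other mesenchymal-like cells of the same libraries. Des, which sets the gate, is among the 8, so part of that rise was fixed in advance. Alone it stood at 1472 and 921 CPM in the gated cells, against 438 and 102 CPM in the others. Cardiomyocyte markers summed to 94.2 and 213 CPM in the gated cells, against 10.9 and 32.3 CPM in the others, with Myh6 at 0 in both. Mesothelial markers summed to 399 and 350 CPM in the gated cells, against 236 and 90.1 CPM in the others. Myrf stood at 27.4 and 14.96 CPM in the gated cells, against 14.5 and 5.48 CPM in the others. The median depth was 50080 and 19320 UMIs per gated cell, against 34137 and 15591 UMIs per other cell.

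Within the mutant libraries, Ccl2, Ccl7, Cxcl10, Cxcl1 and Cxcl14 stood higher in gated cells than in the other mesenchymal-like cells in both libraries, and Ccl11 and Cxcl12 stood lower. Cxcl10 was at 33.9 and 56.2 CPM in gated cells of mutant libraries 1 and 2, against 3.64 and 5.07 CPM in the other cells (log2 change 3.35 ± 0.17). Ccl2 was at 78.5 and 350 CPM in gated cells, against 21.5 and 33.5 CPM in the others (log2 change 2.68 ± 0.25). For both genes, every gated sum lay above every other sum. Ccl7 was at 25.1 and 69.8 CPM in gated cells, against 19.3 and 9.40 CPM in the others (log2 change 1.75 ± 0.37), and in mutant library 1 that is a small difference. Within mutant libraries 1 and 2, the log2 ratio of CPM + 1 was 0.36 and 2.77 for Ccl7. For Ccl2 it was 1.82 and 3.34, so for both genes the libraries lay further apart than the SE of the fit. Cxcl1 was at 5.49 and 14.4 CPM in gated cells, against 4.25 and 3.43 CPM in the others (log2 change 1.38 ± 0.33).

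Cxcl14, high in mesothelial-like cluster 5 of the controls, was at 21.8 and 15.5 CPM in gated cells, against 13.0 and 7.11 CPM in the others (log2 change 0.93 ± 0.18). Cxcl12 was at 18.0 and 9.90 CPM in gated cells, against 27.1 and 21.9 CPM in the others (log2 change -0.89 ± 0.19). Ccl11 was at 0.610 and 0.289 CPM in gated cells, against 5.87 and 13.1 CPM in the others (log2 change -4.59 ± 0.45). In this fit, with the library as a block, 5 members passed as higher and 2 as lower (edgeR quasi-likelihood test, Benjamini-Hochberg adjusted p under 0.05). The gate moved a large part of the transcriptome: 14.4% of 13715 genes passed, 9.31% as higher and 5.09% as lower, and nothing is read from the members' count. Their median log2 change was 1.38, against -0.03 over all genes tested. Without the block, 0 genes passed.

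A few cells set some of these levels in mutant library 1. The 2 gated cells with the most Cxcl10 held 115 and 88 of its 278 UMIs there, and without them the level was 9.38 CPM. The 2 highest cells for Ccl7 held 79 and 21 of 206 UMIs, and without them its level was 13.1 CPM, below the 19.3 CPM of the other cells. Cxcl1 stood at 2.96 CPM there without its 2 highest cells, below the 4.25 CPM of the others. Without the 2 highest cells of each, Ccl2 stood at 41.1 CPM, Cxcl12 at 9.46 CPM and Cxcl14 at 14.1 CPM in that library, and Cxcl14 was then close to the 13.0 CPM of the others. Mutant library 2 was less uneven, with Cxcl10 at 46.1 CPM and Ccl7 at 61.3 CPM without the 2 highest cells of each. With a gate of 4 UMIs per 10000, which held 81 and 287 cells, the log2 change of Cxcl10 was 1.13 and did not pass in edgeR. That of Ccl2 was 2.19 and passed.

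Within cluster 2 the order held for Cxcl10 and Ccl2. Its 103 and 445 gated cells in the mutant libraries held Cxcl10 at 39.1 and 66.3 CPM, against 1.52 and 16.8 CPM in its 143 and 1101 cells outside the gate. Ccl2 was at 90.9 and 417 CPM in gated cells of the cluster, against 32.9 and 97.2 CPM in its other cells. Ccl7 was level in mutant library 1, at 29.1 CPM in gated cells and 28.2 CPM in the others, and apart in mutant library 2, at 84.5 and 21.2 CPM. Cxcl1 was at 5.64 and 17.4 CPM in gated cells of the cluster, against 6.25 and 9.69 CPM in its other cells. Cxcl12, lower in the gate as a whole, was at 19.2 and 11.02 CPM in gated cells of the cluster, against 32.4 and 5.51 CPM in its other cells, and so went opposite ways in the 2 libraries. Cluster 7, led by the muscle genes Actc1 and Myl4, numbered 28 and 241 cells in mutant libraries 1 and 2. They held 0 and 21 Ccl7 UMIs and 1 and 30 Cxcl10 UMIs. Its 162 ungated cells in mutant library 2 had little of either, at 2.81 and 0.624 CPM, so most of its Cxcl10 there lay inside the gate. Ccl2 was at 29.03 CPM in the ungated cells, with 87 of its 93 UMIs in 1 cell.

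**Figure D3:**
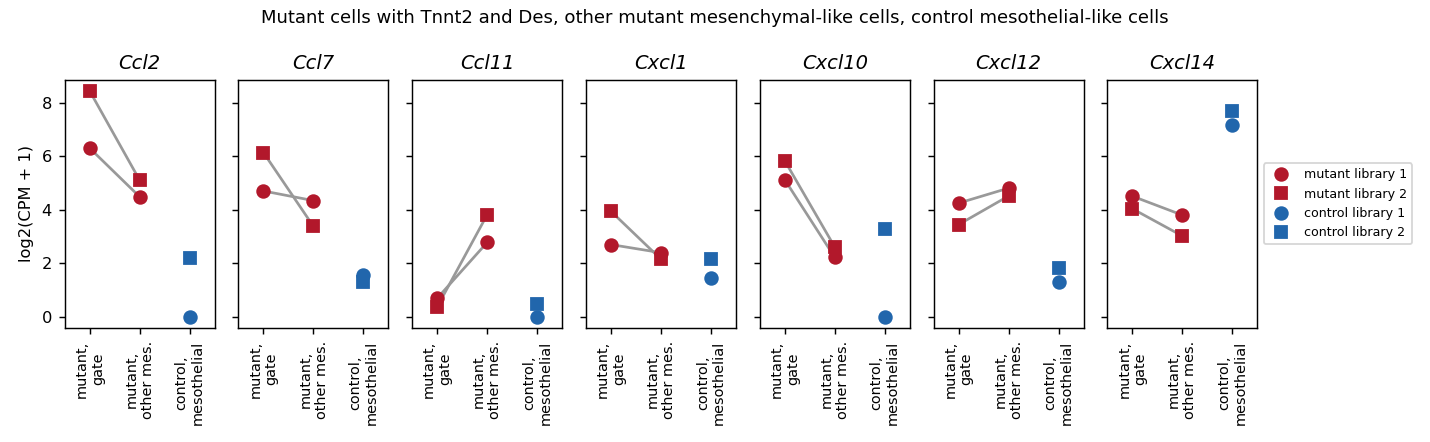
Levels of each gene as log2(CPM + 1) in mutant cells with Tnnt2 and Des, in the other mutant mesenchymal-like cells (grey lines join the 2 sums of a library) and in control mesothelial-like cells. Ccl2, Cxcl10, Cxcl1 and Ccl7 lie higher in the gate in both libraries, Ccl11 lies lower, and Cxcl14 is highest in control mesothelial-like cells, at 146 and 207 CPM.

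Detection per cell of Ccl7 and Cxcl10 went the same way as their sums. Ccl7 had a UMI in 19 of 123 and 109 of 537 gated cells of mutant libraries 1 and 2 (15.4 and 20.3%), against 19 of 257 and 177 of 3629 other mesenchymal-like cells (7.39 and 4.88%). Cxcl10 had a UMI in 20 and 105 gated cells (16.3 and 19.6%), against 5 and 78 other cells (1.95 and 2.15%). Epithelial-like cells were read beside them, although whether they make either gene was not tested. Ccl7 and Cxcl10 were each found in 1 of 16 and 0 of 49 of them, at median depths of 37589 and 18582 UMIs, and 0 of 49 allows up to 6.12%. The 1 cell with Ccl7 held 4 of its UMIs. After every cell was thinned to 5000 UMIs, Ccl7 was detected in 8.47 and 12.4% of gated cells, against 2.05 and 1.95% of the others. Cxcl10 was detected in 5.08 and 11.5% of thinned gated cells, against 0.820 and 0.990% of the others. Cxcl12 did not follow its sum in mutant library 1, with a UMI in 26.8% of gated cells, against 20.6% of the others, and did in mutant library 2, at 14.3 and 20.8%. Thinning left out 5 and 13 gated cells and 13 and 92 others that were shallower. The 26 gated cells of control library 2 had no UMI of Ccl2, Ccl7 or Cxcl10, which allows up to 11.5%, and held Cxcl14 at 66.9 CPM.

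Ccl7 and Cxcl10 were often found in the same gated cells. In mutant library 1, 8 of 123 cells carried both, where the shares of each gene alone give 3.09 cells, a ratio of 2.59. In mutant library 2, 64 of 537 carried both, where the shares give 21.3, a ratio of 3.00. Cells with both were 6.50% of the gate in mutant library 1 (exact 95% Clopper-Pearson interval 2.85 to 12.4%) and 11.9% in mutant library 2 (9.30 to 14.96%). Of the gated cells with Cxcl10, 40.0 and 61.0% also carried Ccl7. The intervals cover counting error only, and cells of 1 library are not replicates, so no test is given.

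Depth moves with this overlap. The cells with both genes had a median of 78732 UMIs in mutant library 1 and 30525 in mutant library 2, against 46990 and 17783 UMIs in gated cells with neither. When the gate was split at its median depth, the ratio was 1.94 (7 cells with both) among deeper cells of mutant library 1 and 3.39 (1 cell) among shallower ones. For mutant library 2 it was 2.45 (44 cells) among deeper and 3.85 (20 cells) among shallower cells. After thinning to 5000 UMIs, 2 cells of mutant library 1 and 29 of mutant library 2 carried both, with ratios of 3.93 and 3.90. Thinning also lowers the share of cells with each gene, which raises the highest ratio that can be reached, and the ratio of mutant library 1 rests on 2 cells. The part of depth in the overlap was not tested.

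The overlap was also found outside the gate. In mesenchymal-like cells outside it, 2 of 257 and 30 of 3629 cells of the mutant libraries carried both, with ratios of 5.41 and 7.89, and in mutant library 2 all 30 of these lay in cluster 2. Within cluster 2 outside the gate the ratios were 7.15 (2 cells) and 9.34 (30 cells). Among Ptprc-positive cells, kept apart, both genes were carried by 2 of 3 and 2 of 11 cells of the mutant libraries. The gate held 1 Ptprc-positive cell, in mutant library 2, which carried Ccl7 but not Cxcl10, and with it the ratio there was 2.98.

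Other pairs showed which members were found together. Ccl2 and Ccl7, the chromosome 11 neighbours, were both present in 15 gated cells of mutant library 1, where the shares give 3.86, and in 87 of mutant library 2, where they give 30.4. Ccl7 and Cxcl1 gave ratios of 3.02 and 2.93, Ccl2 and Cxcl10 gave 2.21 and 2.59, and Cxcl1 and Cxcl10 gave 2.87 and 2.49. All 6 pairs among Ccl2, Ccl7, Cxcl1 and Cxcl10 lay between 2.21 and 3.88. Pairs of one of these 4 genes with Cxcl14 lay lower, between 0.94 and 1.58, and pairs with Cxcl12 lay between 1.44 and 2.24. Ccl11, with a UMI in 2 and 4 gated cells, was too rare to pair.

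**Figure D4:**
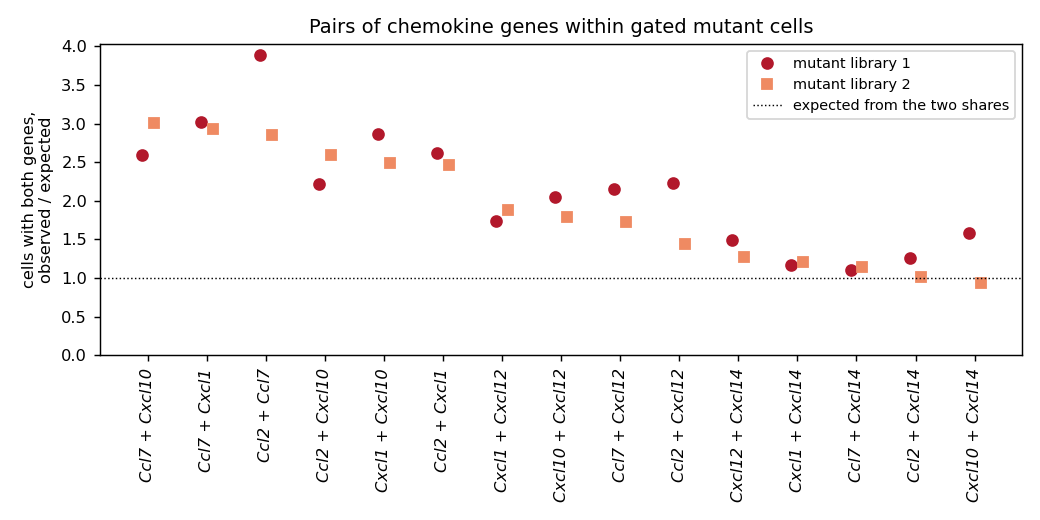
Cells with a UMI of both genes of a pair, as observed number over the number that the shares of the 2 genes give, in the 123 and 537 gated cells of mutant libraries 1 and 2. The 6 pairs among Ccl2, Ccl7, Cxcl1 and Cxcl10 lie at 2.21 or more in both libraries. The pairs with Cxcl14 shown lie lower, between 0.94 and 1.58 (dotted line at 1).

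Cells were also counted by how many of the 4 genes they held. Because this grouping uses the same UMIs, cells with more genes must hold more of them, and the shares are a description. In mutant libraries 1 and 2, 80 of 123 and 330 of 537 gated cells had no UMI of Ccl2, Ccl7, Cxcl1 or Cxcl10. Cells with 3 of the 4 genes numbered 9 and 52, and cells with all 4 numbered 3 and 25. Those 12 cells of mutant library 1 held 65.4 and 24.7% (3 genes and 4 genes) of the Ccl2 UMIs of the gate, and 74.8 and 13.3% of its Cxcl10 UMIs. The corresponding cells of mutant library 2 held 49.7 and 37.8% of the Ccl2 UMIs and 40.1 and 49.5% of the Cxcl10 UMIs. Median depth was 45360 UMIs in cells with none and 91008 in cells with 3 in mutant library 1, and 17457 and 27260 UMIs in mutant library 2. Ccl2, a gene the pair was not defined on, stood at 255 and 1486 CPM in cells with both Ccl7 and Cxcl10, against 7.29 and 40.3 CPM in cells with neither.

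NF-kB response genes, a list of 18 that does not contain the members, also stood higher in the cells with both. Their summed level was 1060 and 1238 CPM in gated cells with both Ccl7 and Cxcl10 in mutant libraries 1 and 2, against 631 and 623 CPM in gated cells with neither. Of the 18, 14 stood higher in both libraries and 0 lower in both. Bcl3, Cebpd and Nfkbiz stood lower in mutant library 1 and higher in mutant library 2, and Il6 had no UMI in these cells. Of the 16 with at least 10 UMIs in the gate of each library, 13 stood higher in both and 0 lower in both, and of all 12824 such genes 25.5% stood higher and 38.1% lower in both. Nfkbia, the inhibitor that NF-kB induces against itself, stood at 246 and 368 CPM in cells with both, against 115 and 109 CPM in cells with neither. Tnfaip3, another such brake, stood at 18.8 and 15.02 CPM, against 5.91 and 3.06 CPM. Tnfaip2 stood at 55.2 and 17.9 CPM, against 6.50 and 2.83 CPM, and the adhesion gene Vcam1 at 149 and 213 CPM, against 78.2 and 85.8 CPM. All 4 were higher in the cells with both in each library, but they are examples and nothing is read from their agreement. Nfkbia and Vcam1 were named after these values were seen, and Tnfaip2 and Tnfaip3 for their small p between gated and other cells. In mutant library 1 the cells with both numbered only 8.

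Interferon response genes were mixed. Of 28 on the list, 4 stood higher and 14 lower in both libraries in cells with both Ccl7 and Cxcl10 (4 and 11 of the 22 with at least 10 UMIs), and the sums were 1205 and 1533 CPM in cells with both, against 1527 and 1513 CPM in cells with neither. H2-K1, which presents peptides to T cells, stood at 58.5 and 81.6 CPM in cells with both, against 34.5 and 37.9 CPM. Ifit1 had no UMI in the cells with both and Isg15 had 0 and 2. Immediate early and dissociation genes, a sign of handling stress, summed to 4995 and 5435 CPM in cells with both, against 6179 and 5359 CPM in cells with neither, and 2 of 17 stood higher and 5 lower in both libraries. The 10 immune markers summed to 1.10 and 4.06 CPM in cells with both, against 3.74 and 5.90 CPM in cells with neither. Cells with both also held more Des, at 2349 and 1458 CPM, against 1217 and 704 CPM, and less Tnnt2, at 723 and 740 CPM, against 914 and 871 CPM, but these genes set the gate.

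**Figure D5:**
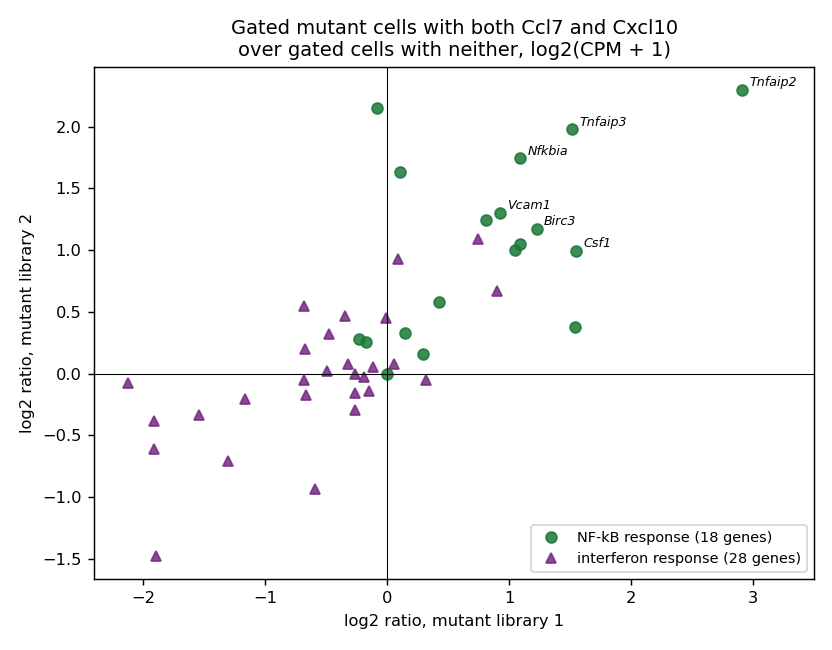
Log2 ratio of the level, as CPM + 1, in gated cells with both Ccl7 and Cxcl10 over gated cells with neither, for mutant library 1 (horizontal) and mutant library 2 (vertical), with 1 point per gene. NF-kB response genes lie mostly in the upper right, with Tnfaip2 at 2.90 and 2.30, while interferon response genes lie on both sides of 0.

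The same lists were read in the fitted comparisons. Between gated and other mesenchymal-like cells of the mutants, 10 of 16 tested NF-kB response genes rose and 0 fell, against 9.31 and 5.09% of all genes (edgeR adjusted p under 0.05). Tnfaip3 (log2 change 2.27 ± 0.31), Tnfaip2 (2.18 ± 0.34), the adhesion gene Icam1 (1.72 ± 0.23) and the NF-kB subunit gene Nfkb2 (1.45 ± 0.18) had the smallest p. The list's median log2 change was 0.95. Of 23 tested interferon response genes 8 rose and 0 fell, with a median of 0.68, among them Bst2 (1.95 ± 0.22), H2-K1 (1.82 ± 0.30), H2-D1 (1.35 ± 0.21) and Ifi35 (1.24 ± 0.25). Of 17 immediate early and dissociation genes 6 rose and 0 fell, with a median of 0.26, led by Ier3 (1.22 ± 0.15), Atf3 (1.23 ± 0.20), Hspa1b (0.85 ± 0.20) and Hspa1a (0.99 ± 0.26). The median over all genes tested was -0.03, and all of these calls were lost without the library as a block.

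Further chemokine ligands and receptors were few in these cells. Of the 30 other ligands in the files 7 were measured well enough to test and 4 rose in gated cells: Cxcl13 (log2 change 2.17 ± 0.30), Cx3cl1 (1.95 ± 0.39), Cxcl16 (1.12 ± 0.24) and Pf4 (2.48 ± 0.49). Pf4, the platelet chemokine, rests on 1 cell of mutant library 2 with 522 of 558 UMIs, without which and the next cell the level was 1.16 CPM. Cxcl13 also rests on few cells: without its 2 highest cells it stood at 1.24 CPM, against 2.93 CPM with them, in the gate of mutant library 1, and at 8.09 CPM, against 13.6 CPM with them, in that of mutant library 2. Cxcl16, which binds Cxcr6, was spread over cells, at 18.9 and 22.5 CPM in the gate, against 14.2 and 6.67 CPM in the others. Of 23 receptors 3 were tested, and Cxcr4, the Cxcl12 receptor, fell (-1.47 ± 0.41), at 0.975 and 1.23 CPM in gated cells, against 2.13 and 3.79 CPM in the others. Between genotypes over all sorted cells, none of 16 tested ligands and none of 12 tested receptors passed in edgeR, while 8 and 2 had an unadjusted p under 0.05. The scavenging receptor Ackr3 came nearest (log2 change -2.04 ± 0.26, edgeR adjusted p = 0.0590). None of the 26 interferon, 17 NF-kB and 17 immediate early genes tested passed in that comparison, with median log2 changes of 0.20, 0.20 and -0.30. In fibroblast-like cells none of 4 ligands, 3 receptors, 17 interferon, 13 NF-kB and 16 immediate early genes passed.

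Likeness across classes was looked at for Ccl7 and Cxcl10, as the Pearson correlation of log2(CPM + 1) with 10712 genes over 26 sums of a library and class. The sums share libraries, so the values are a description. Ccl7 was most like Arpc1b (r = 0.72), Rad52 (0.71), Kctd12 (0.69), Fas (0.66) and Arf6 (0.64). Cxcl10 was most like Ccl2 (0.66), Rrp7a (0.64), Tspo (0.64), Plaur (0.63) and S100a4 (0.62). Another member led the list of Cxcl10, while none was among the 5 of Ccl7.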

How the data were processed

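Lung cells were profiled with the 10x Chromium 3' V3 kit, per the labels' protocols. The deposited values were UMI counts per gene and barcode, made by the authors with Cell Ranger 6.0.2 on mm10, per the submitters' processing notes. The sources used here do not name the annotation release, the barcode calling or the strand setting. Barcodes with at least 1000 genes and at most 15% mitochondrial UMIs passed (8733). Scrublet's automatic threshold marked 7 and so did not work, and the highest scores were removed instead (263, 0.8% per 1000 barcodes), which left 8470 cells.

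Cells were clustered with the Leiden method in scanpy 1.11.5 (3000 variable genes without 482 cell-cycle genes, 30 components, 15 neighbours, resolution 0.4, centred within replicate number) into 13 clusters, named X-like from marker lists when at least 3 markers were 2-fold above the other clusters. These names are rebuilt. One cluster was left unnamed as mixed by a rule set after seeing the data (at least 66% of markers within 2-fold of the rest of the library). Counts were summed per library and tested with edgeR 4.0.16 in R 4.3.3 (filterByExpr, TMM, glmQLFTest, two-sided). DESeq2 1.42.0 was an alternative. Tests on simulated data with known fold changes recovered 10% of 2-fold and 84% of 4-fold changes over all sorted cells, 26% and 96% in fibroblast-like cells and 76% and 98% between gated and other cells. Replicate libraries differed well beyond sampling noise (chi-square over its degrees of freedom 203 in mutants and 97.2 in controls). Members, lists and tests were chosen with earlier results of these data known. Named genes were the members, the gate genes, Myrf and up to 4 genes of each list by smallest p among those that passed, otherwise up to 2, and the 5 genes most like Ccl7 and Cxcl10. The other genes named in the cells with both Ccl7 and Cxcl10 (Nfkbia, Vcam1, Bcl3, Cebpd, Nfkbiz, Il6, Ifit1, Isg15) were chosen after their values were seen. Locations came from GENCODE vM21. One gene among those most like Cxcl14 is not reported here.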

Additional observations from a re-analysis of the deposited data

How the results depend on the processing

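Cxcl14 stayed lower and past the threshold over all sorted cells in all 12 alternatives tried (log2 change -3.30 to -2.65, edgeR or DESeq2 adjusted p up to 0.0456). The Ccl7 call did not: edgeR's adjusted p was 0.0692 when control replicate 1 was left out, 0.0534 when control replicate 2 was, 0.287 with cell numbers made equal (log2 change 1.35), 0.0788 with mixed barcodes removed and 0.0543 with Ptprc-positive cells removed. Other members gained a call there. Ccl2 passed in 6 alternatives (DESeq2, no low-count filter, the replicate block, and without mutant replicate 1, mutant replicate 2 or control replicate 2), Cxcl12 in 5 (the same but for control replicate 2), Cxcl10 in 3 (no filter, and without mutant replicate 1 or control replicate 2) and Ccl11, as lower, in 1 (without mutant replicate 2). Genes past the threshold over all sorted cells numbered 49, against 497 with DESeq2, 733 with no low-count filter and 34 to 1159 with 1 library left out (1159 without mutant replicate 1, 529 without mutant replicate 2, 34 without control replicate 1, 94 without control replicate 2), fits in which the lone library is assumed to vary like the other group. In fibroblast-like cells they numbered 0, against 6 with DESeq2, 121 with no filter and 0 to 112 with 1 library left out (24 without mutant replicate 1, 112 without control replicate 1, 47 without control replicate 2). There Ccl11 passed with no filter (log2 change -1.25) and without control replicate 2 (-1.80), and 3 members turned direction without passing. With 1 library left out, Ccl2 ranged from -1.30 (mutant replicate 2) to 8.88 (control replicate 2, where the remaining control has 0 UMIs and the value depends on the prior count), and was -0.14 without control replicate 1. Ccl7 ranged from -0.97 to 1.09 (control replicate 1), and Cxcl12 from -0.29 (mutant replicate 2) to 0.43. In cells chosen by UMIs Ccl7 was at 0.21 and Cxcl12 at -0.092. The cause was not tested.

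The replicate numbers of the titles were not taken as pairs, since there are only 2 and the labels name no shared batch (same-number correlation of deviations 0.450 over all sorted cells and 0.302 in fibroblast-like cells). With the replicate block, 478 genes passed over all sorted cells, among them Ccl2 (edgeR adjusted p = 0.00165) and Cxcl12 (0.0328), and 12 in fibroblast-like cells, where Ccl7 turned to 0.17. Between gated and other mutant cells 1975 genes passed, against 882 with DESeq2, 968 with a gate of 1 UMI and 555 with a gate of 4 UMIs per 10000, and 0 with no replicate block; leaving out a library leaves no residual degrees of freedom there, so it was not tested. In that comparison Ccl7, Cxcl1, Cxcl12 and Cxcl14 did not pass in DESeq2, Ccl7 and Cxcl12 (log2 change -0.37) did not with a gate of 1 UMI, Ccl7, Cxcl1, Cxcl10 and Cxcl14 did not with a gate of 4 UMIs, and none of the 7 members did with no replicate block. The ratio of observed to expected cells with Ccl7 and Cxcl10 in mutant libraries 1 and 2 was 3.18 and 3.69 with a gate of 1 UMI, 1.70 and 2.55 with a gate of 4 UMIs, 2.91 and 4.44 when detection needed 2 UMIs, and 3.93 and 3.90 after thinning to 5000 UMIs. With gated cells of clusters 2 and 7 alone, chosen after seeing the data, it was 2.57 and 3.02.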

Other observations

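Cxcl14 was also compared across classes by the measure used for Ccl7 and Cxcl10, chosen after its values were seen. Over the 26 sums of a library and class the genes most like it included Rspo1 (r = 0.92), a secreted Wnt agonist on the mesothelial marker list, and Gas6 (0.86). Ccl11 was most like Hsd11b1 (r = 0.86), which activates glucocorticoids, and the mesenchymal transcription factor genes Meox2 (0.86) and Tcf21 (0.83). These are correlations over sums that share libraries, and they carry no test.

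Endothelial-like cells of mutant library 2 also held inflammatory members. Ccl2 had a UMI in 20 of 47 of them, Ccl7 in 10 and Cxcl10 in 13, against 1, 0 and 0 of the 13 endothelial-like cells of control library 2. Some gated cells of mutant library 2 were among them.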
